A study of Mus musculus with 4 samples.

Results

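The 10 genes described here, out of 32932 genes in the count matrices, were Csn3, Wfdc18, Ltf, Lcn2, Trf, Mfge8, Cd14, Kit, Plet1 and Prom1. The set is named for luminal progenitors of the adult mammary gland, a name that need not hold for each gene. All 10 genes encode secreted or surface proteins. Their onset was followed in single cells of the embryonic mammary gland of 3 embryonic stages (E13.5, E14.5, E15.5) and of newborn mice (P0). All 4 groups were wild-type female mice of the strain given as WT C57B6 (substrain B6/N in the study's methods), without a transgene or treatment. Each stage was 1 library from tissue pooled over several embryos, made with the 10x Chromium 3′ v3.1 kit after sorting of EpCAM+ and EpCAM- cells from which CD45+, CD31+ and Ter119+ cells had been removed. Cells with at least 5000 unique molecular identifiers (UMIs, each a counted RNA molecule) and at most 6% mitochondrial UMIs were kept. A cell was called epithelial when its UMIs of Epcam, Krt8, Krt18, Krt5 and Krt14 together exceeded those of Col1a1, Col1a2 and Col3a1, which gave 98 epithelial cells of 235 kept at E13.5. The same rule gave 45 of 76 cells at E14.5. At E15.5 it gave 532 of 816 and at birth 230 of 503.

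Epithelial cells had a median of 18967.5, 26725, 24695.5 and 9973 UMIs at the 4 stages in that order, so the P0 cells were the shallowest. All levels below are CPM, the UMIs of a gene per 1e6 UMIs of all genes, summed over the cells of a group, with an exact Poisson 95% interval. The intervals cover counting error only: with 1 library per stage there was no replicate, no test between stages was possible, and stage and library cannot be told apart. Per the study's methods, each stage was dissected in its own session. The P0 tissue was digested at other enzyme concentrations than the embryonic tissue, and lysis of red blood cells is described for P0 only. Stage and this handling cannot be told apart either. A gene was called higher or lower when its CPM differed at least 2-fold between groups that held at least 20 of its UMIs together. A ratio against a group with 0 UMIs was computed against 3 counts over that group, the one-sided limit that a count of 0 allows, and is given as a lower bound without the error of the count it is set against. The sort set the share of epithelial cells in each library, so no share of that kind is compared. Libraries shared at most 1 barcode, and no shared barcode was among the kept cells of both libraries. The UMIs of hematopoietic marker genes summed to 11.8 CPM in the E15.5 epithelium and to 8.80 CPM in the P0 epithelium, where 1 UMI of Ptprc was found.

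The mammary epithelium consists of an outer layer of contractile basal cells and an inner layer of luminal cells, which fall into hormone-sensing cells and progenitors of the milk-secreting alveolar cells. The adult progenitors, long before lactation, already transcribe some genes for milk proteins and for proteins of mucosal defence. The 10 genes can be ordered by these roles. Csn3 encodes kappa-casein, the protein that keeps casein micelles in suspension, and Wfdc18 a small secreted protein with a whey acidic protein domain. Ltf (lactotransferrin), Lcn2 (lipocalin 2) and Trf (transferrin) encode secreted proteins that bind iron or iron-carrying siderophores, which withholds iron from bacteria or carries it between cells. Mfge8 encodes lactadherin, a milk fat globule protein that bridges phosphatidylserine to integrins. Cd14 is the co-receptor that presents lipopolysaccharide to TLR4. Kit is the receptor tyrosine kinase for stem cell factor, and Plet1 and Prom1 encode further surface proteins.

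In the annotation of GRCm38 (mm10), the build of the reference used for counting, Csn3 lies at chr5:87925579-87932665 on the + strand, Wfdc18 at chr11:83709015-83711348 on the + strand, Ltf at chr9:111019271-111042767 on the + strand and Lcn2 at chr2:32384633-32388252 on the - strand. Trf lies at chr9:103204001-103230444 on the - strand, Mfge8 at chr7:79133768-79149060 on the - strand, Kit at chr5:75574916-75656722 on the + strand, Plet1 at chr9:50494525-50505482 on the + strand and Prom1 at chr5:43993620-44102032 on the - strand. Trf overlaps the predicted gene Gm20425 on its own strand and Prom1 overlaps Gm42716 on its own strand, so their counts could have been split there. Csn3, Plet1 and Prom1 each overlap a gene on the opposite strand (1700066N21Rik, Plet1os and Gm16401).

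The 250 bases before the start of 3 of the genes are shown because these genes stand for the 3 courses found below: Wfdc18 had no UMI in the embryonic epithelium, Plet1 was already present at E15.5, and Mfge8 was present at every stage. The sequences are from RefSeq (GRCm38.p6), 5′ to 3′ on the strand of the gene, at chr11:83708754-83709003 (+), chr9:50494275-50494524 (+) and chr7:79149061-79149310 (-). Capitals mark GGAAGT on either strand, the core bound by ETS factors, the family of Elf5 and Ehf.
Wfdc18: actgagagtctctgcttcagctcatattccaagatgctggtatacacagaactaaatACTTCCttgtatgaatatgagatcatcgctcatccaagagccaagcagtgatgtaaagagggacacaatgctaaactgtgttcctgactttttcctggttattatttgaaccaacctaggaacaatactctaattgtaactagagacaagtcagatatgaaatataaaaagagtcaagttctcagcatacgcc
Plet1: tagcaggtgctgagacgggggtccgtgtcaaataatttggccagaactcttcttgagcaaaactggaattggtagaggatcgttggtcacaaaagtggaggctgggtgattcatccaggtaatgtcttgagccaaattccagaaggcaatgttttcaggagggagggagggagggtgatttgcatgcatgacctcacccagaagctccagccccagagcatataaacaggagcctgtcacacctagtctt
Mfge8: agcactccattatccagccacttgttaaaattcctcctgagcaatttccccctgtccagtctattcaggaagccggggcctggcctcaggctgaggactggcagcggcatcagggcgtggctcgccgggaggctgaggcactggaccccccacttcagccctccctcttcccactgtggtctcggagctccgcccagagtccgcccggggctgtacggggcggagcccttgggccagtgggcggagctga
The GC content of these windows was 38.4% for Wfdc18, 50% for Plet1 and 65.2% for Mfge8. GGAAGT was found at position -193 of the Wfdc18 window and at -71 of 1 of the windows of Prom1, and in 19.7% of all 32851 windows of this length. The STAT motif TTCNNNGAA, found in 7.02% of all windows, and the NF-kB consensus, found in 3.90%, were in none of the windows of the 7 members searched (Wfdc18, Ltf, Lcn2, Mfge8, Kit, Plet1 and Prom1). Csn3, Trf and Cd14 were not searched. The motifs were chosen after the expression values were known, and a match or its absence is a description of these letters only.

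The question of the stage series was when the 10 genes become detectable in the epithelial cells of the dissected mammary tissue. The epithelial rule does not separate mammary from skin cells, and no skin cells were removed for the main results. The study removed contaminating skin cells and kept fewer mammary epithelial cells at each stage. Relative to the cells called epithelial here, the gap was widest at E13.5, where the study kept only a minority of that number. Levels at E13.5, and ratios against them, are therefore those of epithelial cells of the dissected tissue and not of mammary cells alone. Skin marker genes summed to 516 CPM at E13.5, 730 CPM at E14.5, 1634 CPM at E15.5 and 97.2 CPM at P0 in the epithelium. How many of the epithelial cells were skin was not tested. All 10 genes were higher at P0 than at each embryonic stage. They fell into a group that was near 0 before birth and a group that was already present. Csn3, Wfdc18, Ltf, Lcn2, Trf and Cd14 had between 0 and 8 UMIs each in the epithelium of every embryonic stage. Mfge8, Kit and Prom1 were found at every stage, and Plet1 was present in quantity by E15.5.

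Among the milk protein genes, Csn3 had 0 UMIs in the epithelium at E13.5 and E14.5, 1 UMI in the 532 cells of E15.5 and 3567 UMIs at P0, where its level was 1364 CPM (1320 to 1410). Wfdc18 had 0 UMIs at all 3 embryonic stages and 10329 UMIs at P0, a level of 3951 CPM (3875 to 4028). By the limit of 3 counts, a count of 0 allowed up to 1.47 CPM at E13.5, 2.36 CPM at E14.5 and 0.210 CPM at E15.5. Both genes were thus seen almost solely in the P0 library. Against E15.5, the deepest embryonic sample with 14293755 epithelial UMIs, Wfdc18 was at least 18824-fold higher at P0, and the ratio of Csn3 was 19502 with an interval from 3498 to 770497 because it rested on 1 UMI at E15.5.

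The iron-binding proteins followed the same course. Lcn2 had 0, 0 and 1 UMI at the embryonic stages and 4020 at P0 (1538 CPM, 1490 to 1586). Ltf had 0 UMIs at each embryonic stage and 186 at P0 (71.1 CPM, 61.3 to 82.1), at least 339-fold above E15.5. Trf had 1, 0 and 8 UMIs at the embryonic stages (0.56 CPM at E15.5) and 251 at P0 (96.0 CPM, 84.5 to 109), which was 172-fold above E15.5 (85.7 to 402). The difference in Trf was not confined to the epithelium. Non-epithelial cells held 7, 1 and 4 of its UMIs at the embryonic stages and 143 at P0 (57.0 CPM).

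Cd14, the lipopolysaccharide co-receptor, had 0, 0 and 3 UMIs in the embryonic epithelium and 188 at P0, a level of 71.9 CPM (62.0 to 83.0) and 343-fold above E15.5 (115 to 1676). Kit was at 6.86, 9.42 and 3.22 CPM at the embryonic stages in order and at 27.5 CPM (21.5 to 34.7) at P0. The P0 level of Kit was 4.02-fold (2.25 to 7.71), 2.92-fold (1.57 to 5.92) and 8.56-fold (5.83 to 12.7) above the 3 earlier stages. Prom1 was at 4.41, 7.85, 8.54 and 18 CPM, so its P0 level was only 2.11-fold above E15.5 (1.47 to 2.97), and that call was lost at 1.89-fold without the P0 cell richest in Prom1 and at 1.19-fold when every cell was thinned to 5000 UMIs. Against E13.5 it was 4.08-fold higher, and 1.70-fold after thinning.

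Mfge8 was at 63.2 CPM (52.8 to 75.1), 24.3 CPM (16.5 to 34.6) and 37.0 CPM (33.9 to 40.3) at the embryonic stages and at 231 CPM (213 to 250) at P0. The P0 level was above every embryonic level, by 3.66-fold, 9.49-fold and 6.24-fold. In non-epithelial cells Mfge8 also stood higher at P0, at 179 CPM against 59.2 CPM at E15.5. Plet1 was scarce at the earliest stages and abundant by E15.5: 5.88 CPM at E13.5 and 14.1 CPM at E14.5, where single cells held 7 of 12 and 12 of 18 UMIs, then 219 CPM (212 to 227) at E15.5 and 3163 CPM (3095 to 3232) at P0. Its level thus differed 37.3-fold between E13.5 and E15.5 (21.3 to 72.3) and a further 14.4-fold between E15.5 and P0 (13.8 to 15.0).

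**Figure D1:**
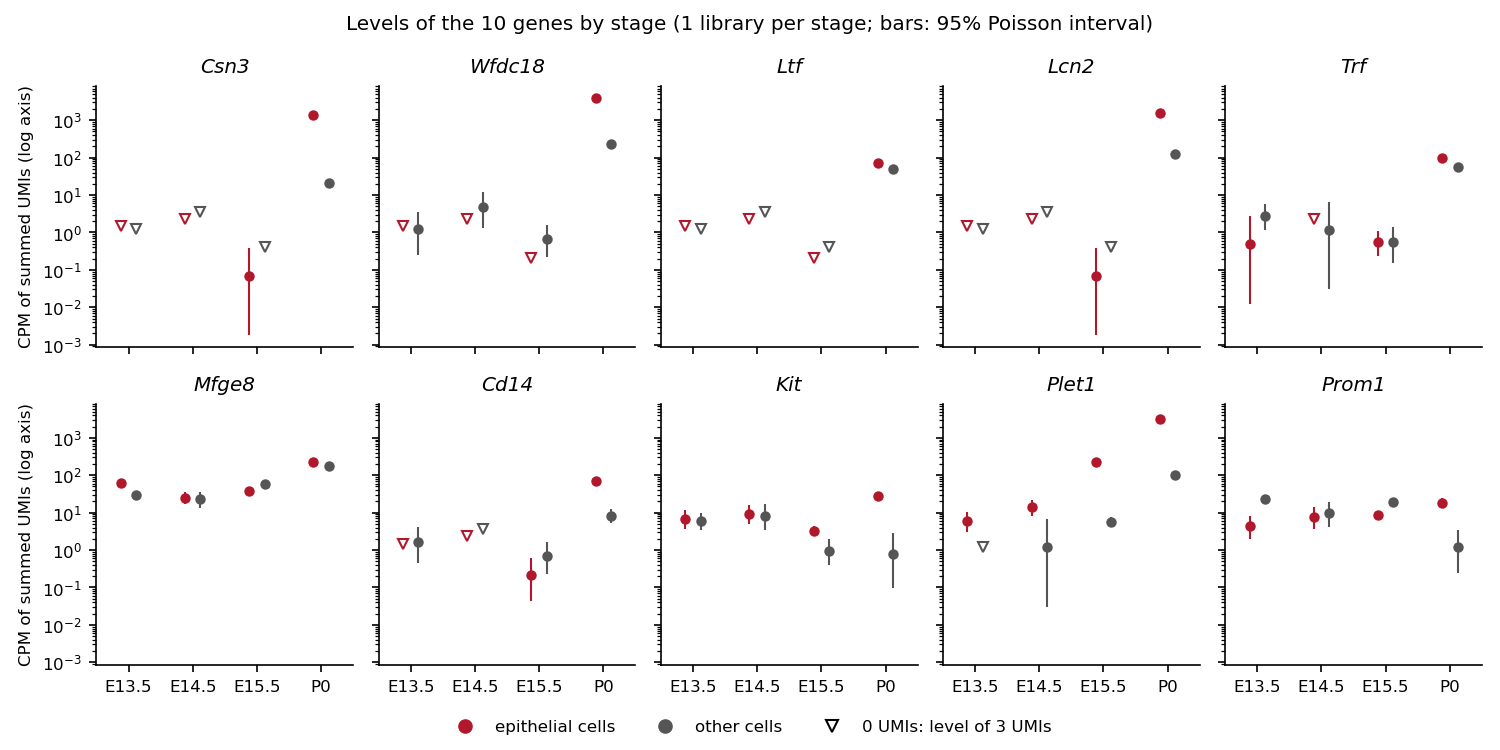
CPM of each of the 10 genes (log scale) in epithelial and other cells of each stage, with exact Poisson 95% intervals; triangles mark the level that 3 UMIs would give where a group had none. Wfdc18 has no epithelial UMI before P0 and stands at 3951 CPM there, whereas Mfge8 lies between 24.3 and 63.2 CPM in the embryonic epithelium and at 231 CPM at P0.

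In counts, 10 of 10 members were at least 2-fold higher in the P0 epithelium than at each of the 3 earlier stages, where 17.4%, 14.4% and 15.0% of all tested genes were in stage order. None of the 10 was lower, where 20.2%, 25.5% and 18.5% of all genes were. These 3 comparisons share the P0 cells. Csn3, Wfdc18, Ltf, Lcn2, Trf and Cd14 reached the minimum of 20 UMIs only through P0 in all 3 comparisons. Kit, Plet1 and Prom1, each with fewer than 20 UMIs at E13.5 and at E14.5, did so against those stages. Passing only through P0 nearly fixed the direction. In these cases the count is a description and no support beside the shares of all genes. Between E13.5 and E15.5, 4 members held enough UMIs: Plet1 was higher (14.9% of all genes were), Kit was lower at 0.469 of its E13.5 level (0.254 to 0.924; 14.8% of all genes were lower), Mfge8 was at 0.586 (0.482 to 0.716) and Prom1 at 1.94 (0.987 to 4.34). Without cells that expressed epidermal differentiation genes (described next), Prom1 was 2.38-fold higher at E15.5 and Kit was at 0.621, so both calls changed.

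The level of Plet1 at E15.5 moved with genes of epidermal differentiation. Of the 532 epithelial cells, 274 held at least 5 UMIs of Krt1, Krt10, Krtdap, Sbsn and Ly6d together (suprabasal gate), genes of differentiating epidermis that are not exclusive to skin; Krtdap gave 61.6% of these UMIs. Plet1 was at 306 CPM in these cells and at 94.9 CPM in the other 258, a ratio of 3.23 (2.95 to 3.54), where 3.67% of all genes were 2-fold higher. Kit was at 0.449 of its level in the other cells, where 2.77% of genes were 2-fold lower. That call on Kit was lost at 0.570 (0.288 to 1.11) without the cell richest in Kit. Without the cells of this gate, Plet1 differed 15.8-fold between E13.5 and E15.5 and 35.8-fold between E15.5 and P0, so the larger step was then the later one. The study reports Krtdap and Ly6d among genes of its luminal-like mammary cells at E15.5. It first picked Plet1 as a luminal gene from its E15.5 clusters or differentiation trajectories in these same libraries, after removing skin cells. With in situ hybridization in the bud added, the study proposes that Plet1 marks luminal-biased cells. Leaving out the gate can therefore also remove mammary cells rich in Plet1, which by itself would shift these ratios. At P0 the gate took 127 of 230 epithelial cells and Ly6d, which luminal cells also express, gave 93.4% of its UMIs. The 33 E15.5 epithelial cells with at least 2 UMIs of Aldh1a3, in contrast, did not hold more of the members: the 4 tested all differed less than 2-fold from the other cells, with Plet1 at 0.880 (0.763 to 1.01), where 4.19% of all genes were higher and 6.05% lower. Whether the gated E15.5 cells were skin or mammary cells was not tested. Skin marker genes summed to 1634 CPM in the E15.5 epithelium and to 97.2 CPM in the P0 epithelium.

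The members were not spread evenly over the 230 epithelial cells of P0. Plet1 was found in 97.4% of the cells (exact binomial 95% interval, 94.4 to 99.0), Lcn2 in 87.8%, Wfdc18 in 84.3%, Mfge8 in 70.0% and Csn3 in 65.2%. Cd14 was found in 28.3%, Trf in 21.3%, Kit in 20.9%, Ltf in 17.8% and Prom1 in 12.6%. Thinned to 5000 UMIs per cell, these shares ranged from 95.7% for Plet1 to 6.09% for Prom1. The 23 cells with the most UMIs of a gene held 38.4% of the UMIs of Mfge8 and 42.8% of those of Wfdc18, but 88.8% of those of Trf and 90.3% of those of Ltf. Ltf and Trf were therefore genes of few cells, while Plet1, Lcn2 and Wfdc18 were found in most.

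Counting how many of the 10 genes a cell expressed after thinning, the median was 4.5 in the P0 epithelium and 1 in the E15.5 epithelium. At least 3 members were found in 198 of 230 epithelial cells at P0 (86.1%), in 3 of 532 at E15.5 (0.564%) and in 11% of the non-epithelial cells of P0.

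The second question was where in the P0 epithelium the genes were expressed. The 133 cells with at least 2 UMIs of Aldh1a3, which encodes a retinaldehyde dehydrogenase used as a marker of luminal progenitors, were set against the other 97 epithelial cells, of which 70 held 0 and 27 held 1 UMI. Of the 133 cells, 17 held exactly 2. The median depth was 9831 UMIs in the Aldh1a3-high cells and 10189 in the others. Of the 10 members, Wfdc18, Ltf and Plet1 were higher in the Aldh1a3-high cells, Trf and Prom1 were lower, and Csn3, Lcn2, Mfge8, Cd14 and Kit differed less than 2-fold. Of all tested genes, 4.84% were higher and 4.63% lower.

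Wfdc18 was at 5882 CPM in the Aldh1a3-high cells and at 1543 CPM in the others, a ratio of 3.81 (3.62 to 4.01), with a median of 44 UMIs per cell against 2. Ltf was at 114 and 18 CPM, a ratio of 6.30 (3.99 to 10.5), and was found in 35 of 133 and 6 of 97 cells. Plet1 was at 4362 and 1668 CPM, a ratio of 2.62 (2.49 to 2.75). Csn3 was at 1719 and 922 CPM, 1.86-fold higher (1.74 to 2.00), and Mfge8 at 273 and 179 CPM, 1.53-fold higher (1.29 to 1.82). Lcn2 hardly differed, at 1608 and 1450 CPM, a ratio of 1.11 (1.04 to 1.18).

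Trf was at 31.0 CPM in the Aldh1a3-high cells and at 177 CPM in the others, a ratio of 0.175 (0.124 to 0.243), which was 0.306 without the cell holding the most Trf. Prom1 was at 7.58 and 30.9 CPM, a ratio of 0.245 (0.113 to 0.492). Cd14 was at 54.5 and 93.7 CPM, a ratio of 0.581 (0.430 to 0.784), and Kit at 24.8 and 30.9 CPM, a ratio of 0.802 (0.491 to 1.31). Leaving out the richest cell of each gene changed none of the 10 calls. Of the progenitor markers that did not define the groups, Elf5, a transcription factor of the alveolar lineage, was 1.42-fold higher in the Aldh1a3-high cells, while Kit was at 0.802 and Cd14 at 0.581, none of them 2-fold apart. Sox10, Lypd3 and Krt7, given with the lists below, were more than 2-fold higher. The markers were thus split, and the cells are named here by Aldh1a3.

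**Figure D2:**
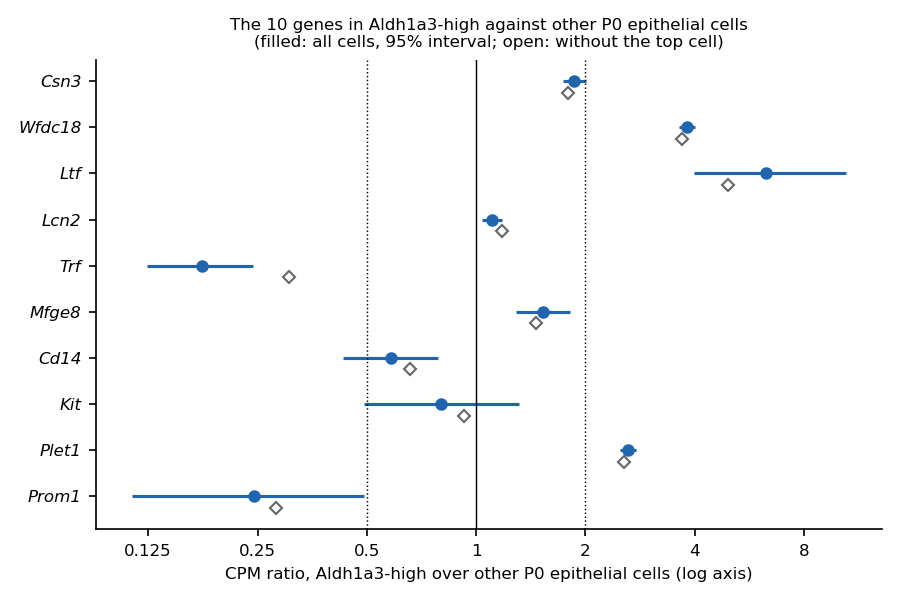
Ratio of CPM in the 133 Aldh1a3-high cells to CPM in the other 97 epithelial cells at P0 (log scale), with exact 95% intervals of counting error; open diamonds show the ratio without the cell holding the most UMIs of the gene. Ltf (6.30), Wfdc18 (3.81) and Plet1 (2.62) lie above 2-fold, and Trf (0.175) and Prom1 (0.245) lie below 0.5.

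The Aldh1a3 threshold was also replaced by 5 classes of Aldh1a3 UMIs: 0 (70 cells), 1 (27), 2 to 4 (42), 5 to 9 (28) and 10 or more (63). Csn3 was higher in each class than in the one before, at 876, 1034, 1522, 1696 and 1852 CPM. Plet1 went from 1758 and 1449 CPM in the lowest classes to 3683, 4613 and 4674 CPM, and Wfdc18 from 1302 and 2128 CPM to 5674, 4258 and 6735 CPM. Lcn2 had no such order, at 1529, 1261, 1424, 1189 and 1908 CPM. Trf was highest in cells without Aldh1a3, at 219 CPM, and at 76.4, 52.6, 19.2 and 22.8 CPM in the others.

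**Figure D3:**
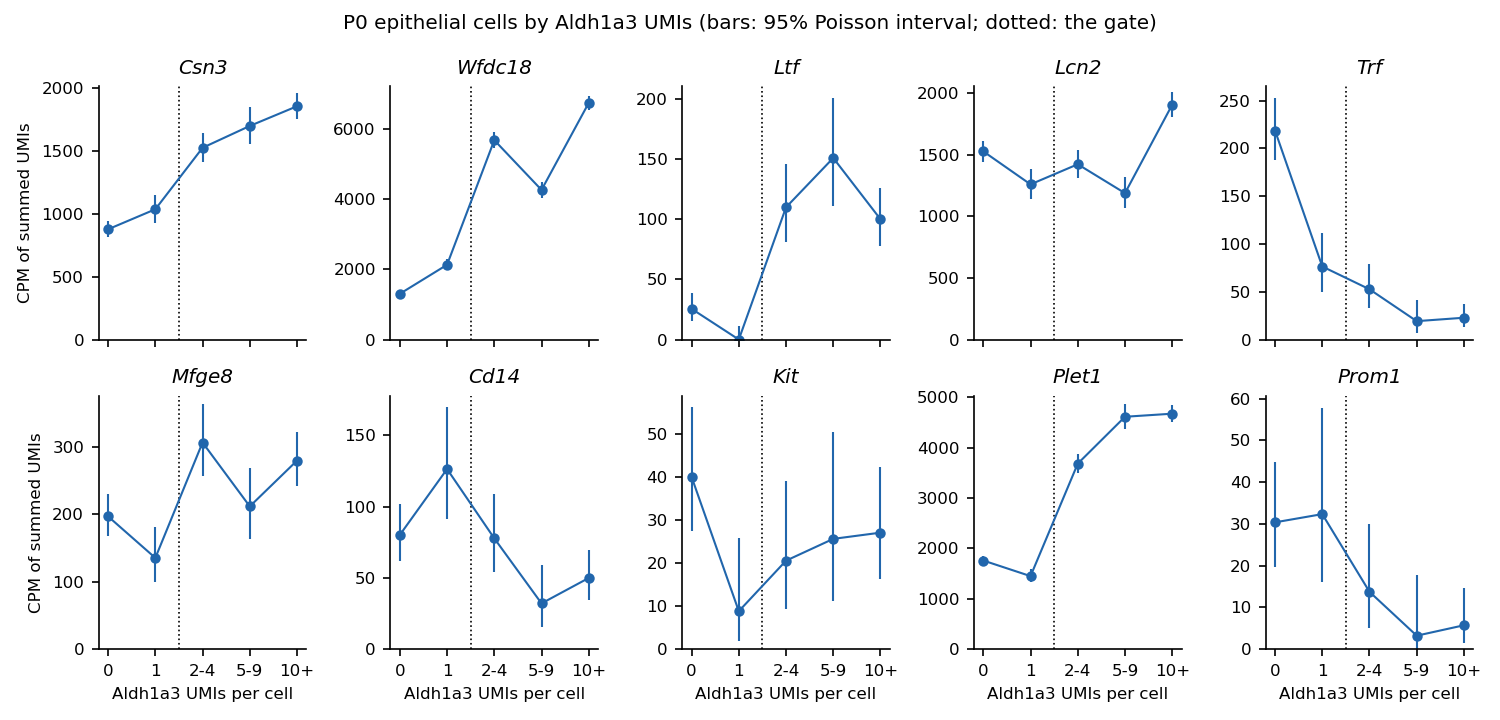
CPM of each member in P0 epithelial cells grouped by their Aldh1a3 UMIs (0, 1, 2 to 4, 5 to 9, and 10 or more), with exact Poisson 95% intervals. Csn3 runs from 876 CPM in cells with 0 UMIs to 1852 CPM in cells with 10 or more, while Trf runs from 219 to 22.8 CPM.

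The 97 cells low in Aldh1a3 were not 1 kind of cell. A gate of at least 5 UMIs of the contractile genes Acta2, Myh11, Cnn1 and Mylk took 18 of them (basal gate), a gate of at least 2 UMIs of Prlr, Cited1, Pgr and Esr1 took 32 (hormone-sensing gate), and 47 met neither. The gates were also met by 0 and 12 of the Aldh1a3-high cells, which were left in their group. Median depth was 10147 UMIs in the basal gate, 14040 in the hormone-sensing gate and 9165 in the cells in neither.

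Wfdc18 was at 5882 CPM in the Aldh1a3-high cells, 3768 in the cells in neither gate, 358 in the basal gate and 42.6 in the hormone-sensing gate, so it was 16.4-fold lower in the basal gate and 138-fold lower in the hormone-sensing gate than in the Aldh1a3-high cells. The hormone-sensing value did not differ from the 37.7 CPM of non-epithelial cells beyond counting error (ratio 1.13, 0.675 to 1.81). Ltf was at 114 and 46.4 CPM in the Aldh1a3-high cells and the cells in neither gate and had 0 UMIs in both other gates, at least 7.41-fold and 19.6-fold lower. Both genes were thus highest in the Aldh1a3-high cells, then in the cells in neither gate.

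Csn3 and Lcn2 did not follow it. Csn3 was at 1719 CPM in the Aldh1a3-high cells, 1411 in neither, 1894 in the basal gate and 126 in the hormone-sensing gate, where 1 cell held 54 of 65 UMIs and the level without it was 21.8 CPM. Lcn2 was at 1608, 1944, 3583 and 211 CPM in the same order, so it was 2.23-fold higher in the basal gate than in the Aldh1a3-high cells (2.05 to 2.43) and 7.61-fold lower in the hormone-sensing gate. Mfge8 was at 273, 190, 543 and 31.0 CPM, a basal level 1.99-fold above the Aldh1a3-high cells. Csn3, Lcn2 and Mfge8 were thus as high in the 18 basal-gate cells as in the Aldh1a3-high cells, or higher.

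Prom1 and Cd14 had their highest level in the hormone-sensing gate. Prom1 was at 7.58 CPM in the Aldh1a3-high cells, 24.3 in neither (13.7 without its richest cell), 0 in the basal gate and 48.4 in the hormone-sensing gate, 6.39-fold above the Aldh1a3-high cells (3.03 to 14.4). Cd14 was at 54.5, 95.1, 0 and 128 CPM, which put the hormone-sensing gate 2.35-fold above the Aldh1a3-high cells (1.67 to 3.30), or 1.92-fold without its richest cell. Kit was highest in the cells in neither gate, at 73.0 CPM (63.1 without its richest cell) against 24.8, 10.2 and 1.94 CPM in the Aldh1a3-high, basal and hormone-sensing cells. The levels of Kit in the gated cells rested on 2 UMIs in the basal gate (0.413 of the Aldh1a3-high level, 0.0481 to 1.60) and 1 UMI in the hormone-sensing gate (12.8-fold lower, 2.16 to 520). Plet1 was lowest in the hormone-sensing gate, at 1159 CPM against 4362, 2291 and 1572 CPM.

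Trf was at 31.0, 237, 276 and 87.2 CPM over the 4 classes, but single cells held much of it. Without the richest cell of each class it was 40.7 CPM in neither gate and 99.8 CPM in the basal gate. The basal gate was then still 3.22-fold above the Aldh1a3-high cells (1.75 to 5.67). Without the richest Aldh1a3-high cell, the hormone-sensing gate was 3.59-fold above them (2.26 to 5.75). In counts, the basal gate held 2 members higher and 5 lower than the Aldh1a3-high cells (6.79% and 23.4% of all genes), the hormone-sensing gate 3 higher and 7 lower (7.61% and 13%). The Aldh1a3-high cells held 1 member higher and 3 lower than the cells in neither gate (8.07% and 2.14%): Ltf was 2.45-fold higher, while Kit was at 0.340 (0.206 to 0.563), Prom1 at 0.312 and Trf at 0.131. Without the richest cell, Ltf was 1.91-fold higher, Prom1 at 0.554 and Trf at 0.762, so of these 4 calls that of Kit, at 0.393, was left.

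**Figure D4:**
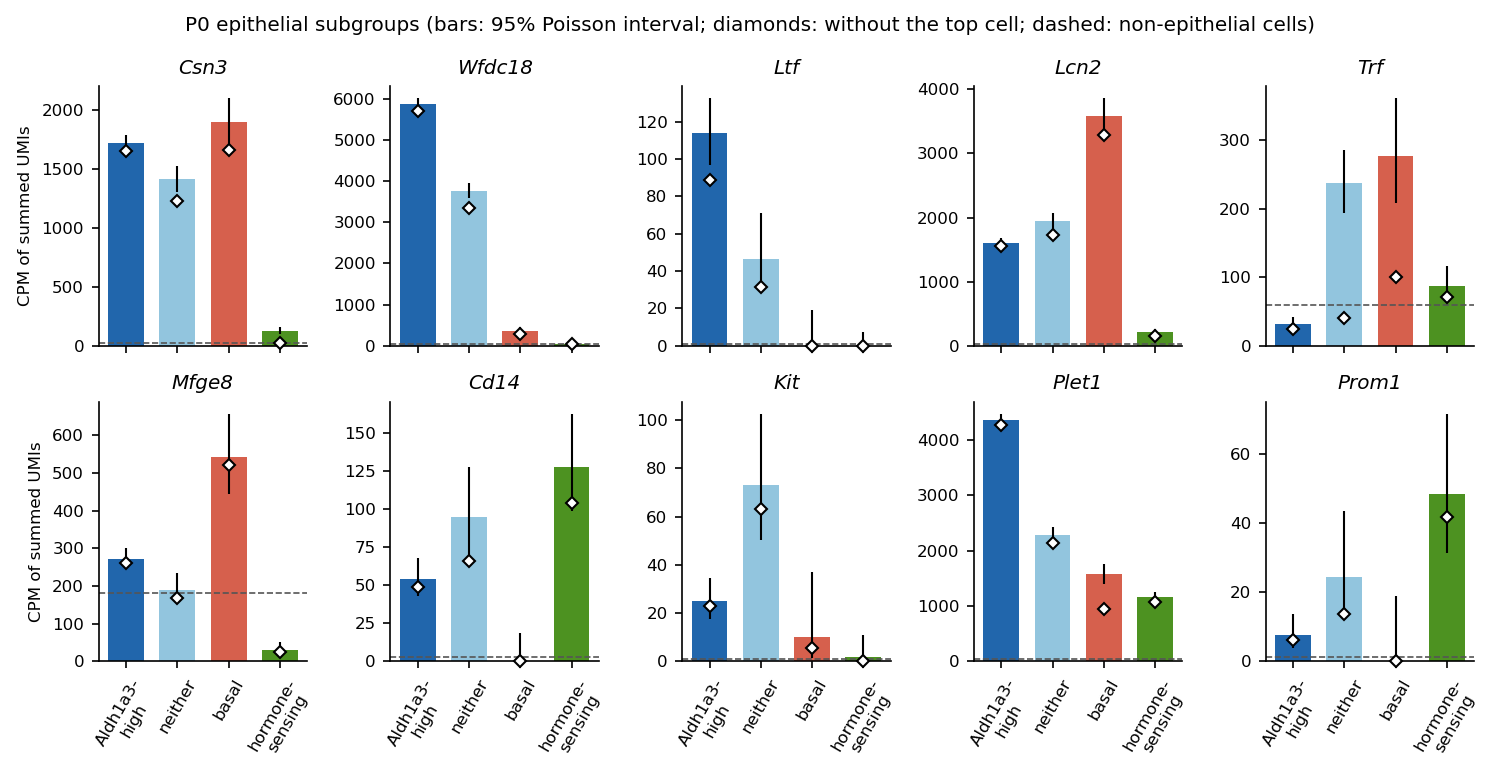
CPM of each member in P0 epithelial cells that are Aldh1a3-high, in neither gate, in the basal gate or in the hormone-sensing gate, as bars from 0 with exact Poisson 95% intervals; diamonds leave out the richest cell and the dashed line is the level in the remaining non-epithelial cells. Lcn2 has its tallest bar in the basal gate (3583 CPM), Prom1 in the hormone-sensing gate (48.4 CPM) and Wfdc18 in the Aldh1a3-high cells (5882 CPM).

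Per cell, at least 3 of the 10 genes were found after thinning in 94.7% of the Aldh1a3-high cells, 87.2% of the cells in neither gate, 100% of the 18 basal-gate cells and 40.6% of the hormone-sensing-gate cells, with medians of 5, 4, 5 and 2 genes. Over the 230 cells, which share 1 library, the Spearman correlation of thinned counts was 0.57 between Csn3 and Lcn2, 0.37 between Csn3 and Wfdc18 and 0.31 between Wfdc18 and Lcn2. With Aldh1a3, it was 0.54 for Wfdc18, 0.46 for Plet1, 0.21 for Ltf, 0.20 for Lcn2, 0.19 for Csn3 and 0.14 for Mfge8. It was -0.01 for Kit, -0.11 for Cd14, -0.14 for Prom1 and -0.16 for Trf. The non-member genes whose counts were most like the sum of the 10 members, among 2941 genes found in at least 20% of these cells, were Dbi (0.60), Aldh1a3 (0.51), Snorc (0.50), Cald1 (0.48), Tm4sf1 (0.46), Epcam (0.43), Fxyd3 (0.42), Efhd2 (0.41), Thbs1 (0.41) and Atp2b1 (0.41). This sum was mostly Wfdc18, Plet1, Lcn2 and Csn3, with 10329, 8269, 4020 and 3567 UMIs before thinning. Mfge8, the next member, held 604. The ranking therefore describes mainly those genes and not each of the 10.

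**Figure D5:**
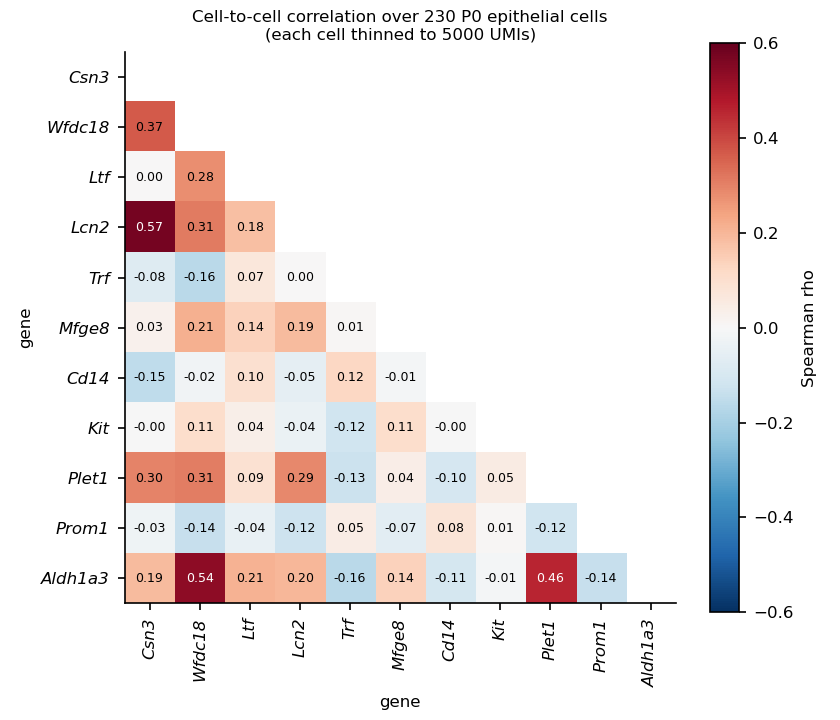
Spearman correlation between the members and Aldh1a3 over the 230 P0 epithelial cells thinned to 5000 UMIs, one square per pair. The highest value between members is 0.57, for Csn3 and Lcn2, and Trf and Aldh1a3 are at -0.16.

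A few P0 cells stood out for milk genes. A single cell in neither gate, with 9966 UMIs and no Aldh1a3, held 285 of the 379 epithelial UMIs of Csn2 (beta-casein), 64 of 105 of Csn1s1 (alpha-casein) and 3 of Wap. The same cell held 89 of the 251 epithelial UMIs of Trf, with 106 of Wfdc18, 101 of Lcn2, 47 of Csn3, 13 of Cd14 and 6 of Ltf. A basal-gate cell held 36 of the 54 Trf UMIs of its class. The cell with the most Ltf, 37 of 186 UMIs, held 325 UMIs of Wfdc18.

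The members were then compared between epithelial and other cells. At P0, 7 of 10 were higher in the epithelium, where 24.7% of all genes were: Csn3 64.6-fold, Kit 34.5-fold (9.22 to 291), Plet1 30.6-fold, Wfdc18 16.8-fold, Prom1 15.0-fold (4.84 to 75.5), Lcn2 12.2-fold and Cd14 8.59-fold. Kit and Prom1, with 2 and 3 UMIs in the other cells, reached the minimum of 20 UMIs only through the epithelium. This nearly fixed their direction, so their calls are a description only. Ltf (1.42, 1.12 to 1.79), Trf (1.68) and Mfge8 (1.29, 1.14 to 1.46) differed less than 2-fold. For Ltf and Lcn2 a pair of cells carried most of the non-epithelial signal: 2 cells with at least 5 UMIs of the neutrophil genes S100a8, S100a9, Camp and Ngp held 124 of 126 Ltf UMIs and 221 of 317 Lcn2 UMIs. Without these cells Ltf was 88.7-fold and Lcn2 39.9-fold higher in the epithelium. Cd14, with 12 of its 21 non-epithelial UMIs in 1 of them, was then 19.9-fold higher. Another 5 cells, with at least 20 UMIs of the epithelial genes, held 496 of 588 non-epithelial Wfdc18 UMIs and 154 of 259 of Plet1.

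In the 266 non-epithelial cells left without these 7, Csn3 was at 18.9 CPM, Wfdc18 at 37.7, Lcn2 at 22.6, Plet1 at 42.7 and Ltf at 0.82 CPM. These 5 genes stood at between 0.955% (Wfdc18) and 1.47% (Lcn2) of their epithelial level, although their epithelial levels differed widely. Kit, Cd14 and Prom1, with few UMIs in these cells, stood at 2.98% (0.354 to 11.2), 3.99% (1.58 to 8.39) and 6.85% (1.36 to 21.3). Wfdc18 was found in 28.9% of these cells and Plet1 in 28.2%, at a median depth of 8702 UMIs, which is the background against which the shares of epithelial cells above are read. Trf (58.7 CPM, 61.1% of the epithelial level) and Mfge8 (181 CPM, 78.5%) stood well above that and were expressed outside the epithelium as well.

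In the embryo, Mfge8 was 2.16-fold higher in epithelial than in other cells at E13.5 (1.61 to 2.93; 10.2% of all genes were higher) but at 0.625 of their level at E15.5 (0.550 to 0.712). Prom1 was lower in the epithelium at E13.5, at 0.194 (0.0844 to 0.395; 21.9% of genes were lower), and at E15.5, at 0.446 (0.347 to 0.573; 22.5% were lower). Plet1 was 37.9-fold higher in the E15.5 epithelium (28.0 to 52.7) and Kit 3.34-fold (1.5 to 8.77), where 16.8% of genes were higher. The call on Kit was lost at a mitochondrial limit of 10%, where its ratio was 1.01. Melanocyte marker genes, which accompany Kit in pigment cells, summed to between 1.57 and 7.27 CPM in the epithelium of the 4 stages, and mast cell markers were at 0 there.

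Other genes of the same roles were taken from fixed lists. Of 14 milk genes, 9 held enough UMIs in P0 and E15.5 epithelium and all 9 were higher at P0 (15.0% of all genes were higher and 18.5% lower), among them Csn2 at least 691-fold, Csn1s1 at least 191-fold, Spp1 (osteopontin) 104-fold, Xdh (xanthine oxidoreductase of the milk fat globule membrane) 44.6-fold and Plin2 (a lipid droplet protein) 4.03-fold. Only 3 of the 14 reached the minimum of UMIs between E13.5 and E15.5, so most of the 9 passed it through P0. For those genes the filter nearly fixed the direction, and the count is a description only. Of 17 innate defence genes, 12 were tested, 9 were higher and 1 was lower, where 15.0% and 18.5% of all genes were. Only 7 of the 17 reached the minimum between E13.5 and E15.5, so some of the 12 passed it through P0. For those genes, too, the filter nearly fixed the direction, and the count is a description only. The antiprotease Slpi was 302-fold higher, the chemokine Cxcl1 35.4-fold, the antibacterial Pglyrp1 21.4-fold and the lipopolysaccharide-binding protein Lbp at least 45.6-fold. Saa3, an acute phase protein, was at 0.166. Slpi, Cxcl1, Pglyrp1 and Lbp were also higher at P0 in non-epithelial cells. There Cxcl1 was at 39.4 CPM at E15.5 and 4279 CPM at P0, and Lbp had 0 and 242 UMIs. The 31 Slpi UMIs of non-epithelial cells at P0 were in 24 cells, with 8 in 1 of the cells with neutrophil genes. All 52 Pglyrp1 UMIs of non-epithelial cells at P0 were in 4 of 273 cells, 38 of them in 1 cell. Whether Slpi and Pglyrp1 stood above background in the remaining non-epithelial cells was not tested. Between epithelial and other P0 cells, 15 defence genes were tested. In the epithelium 4 were higher and 8 lower, where 24.7% and 18.9% of all genes were. Of 12 progenitor regulators and markers, 6 were higher and 2 lower, with Krt7 111-fold, Sox10 49.2-fold and Ehf 12.6-fold higher and Notch1 at 0.246 and Hey1 at 0.331. Elf5, among the 6 that were higher, was at 44.1, 0, 1.61 and 23.3 CPM over the 4 stages, so its highest level was at E13.5, unlike that of any member. Whether the E13.5 cells with Elf5 were mammary or skin cells was not tested.

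Of 14 receptors, ligands and transporters that work with the members, 13 were tested, 3 were higher at P0 and 2 lower, shares near the 15.0% and 18.5% of all genes. Tlr4, the receptor that Cd14 serves, was 16.4-fold higher, Lbp was higher as above, and Kitl, the ligand of Kit, was 2.13-fold higher. Non-epithelial cells also held more of both Tlr4 (1 UMI at E15.5, 17 at P0) and Kitl (63.5 and 172 CPM) at P0. The iron exporter Slc40a1 (ferroportin) was at 0.334 and the Lcn2 receptor Slc22a17 at 0.364. The median log2 ratio between P0 and E15.5 was 7.91 over the 10 members, 6.70 over the milk genes, 4.21 over the defence genes, 1.53 over the progenitor genes and 0.40 over the partners, with genes at 0 set to their bound, beside -0.11 over all genes tested. Over the members it was 6.61 against E13.5 and 5.14 against E14.5. The bounds depend on the depth of each library. Genes that passed the minimum of UMIs only through P0 lift these medians, which are a description only.

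Between the Aldh1a3-high and the other P0 epithelial cells the milk and defence lists held genes of both directions, where 4.84% of all genes were higher and 4.63% lower. Of 8 milk genes tested, Btn1a1 (butyrophilin, 10.4-fold), Spp1 (4.91-fold) and Xdh (2.01-fold) were higher and Csn1s1 (0.134), Csn1s2a (0.0178) and Csn2 (0.261) lower. The single cell described above held 64 of the 90 Csn1s1 UMIs of the other cells, and all 45 Csn1s2a UMIs there were in 1 cell. For Csn2, apart from that single cell, the other epithelial cells held 1 UMI of Csn2 and the Aldh1a3-high cells 93, of which 91 were in 1 cell, so the direction of Csn2 turns without it. Of 10 defence genes, Lbp (4.21-fold), Pglyrp1 (3.74-fold), Tlr4 (3.05-fold) and Tlr2 (2.38-fold) were higher, and Slpi (0.254) and Saa1, whose 51 UMIs were all in 2 basal-gate cells, were lower. Slpi was at 2054 CPM in the hormone-sensing gate, 513 in neither, 283 in the Aldh1a3-high cells and 41.0 in the basal gate. Of 11 progenitor genes, Sox10 (4.61-fold), Lypd3 (2.46-fold) and Krt7 (2.31-fold) were higher and the other 8 differed less than 2-fold. The median log2 ratio was 0.38 over the 10 members and 0.07 over all genes.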

How the data were processed

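The files hold raw UMI counts per gene and barcode, deposited as filtered matrices that the authors made with Cell Ranger on a pre-built mm10 reference. The version is 6.0.0 per the labels, but 3.1.0 per the header of the E15.5 file. Doublets were excluded at sorting per the labels, and no doublet caller was run here. The deposited matrices held 981, 807, 2642 and 1466 barcodes. The limits on UMIs and mitochondrial share left more cells than the study kept at each stage. Counts were summed over the cells of a group, scaled to CPM over all genes and compared as ratios, with exact Poisson, binomial and conditional binomial 95% intervals (Python 3.11.15, numpy 2.4.6, scipy 1.17.1, pandas 2.3.3). To compare shares and members per cell, each cell was thinned to 5000 UMIs. The 3′ counts are not scaled to length, so levels of different genes are not ranked. The ratio script was tested on simulated data.

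All 10 members are named, then Aldh1a3, genes of the 4 fixed lists, and the 10 genes most like the sum of the members. Members, lists and gates were chosen with earlier results of these data known. Alternatives were a UMI minimum of 3000, a mitochondrial limit of 10%, thinning, median-ratio scaling, other gates and leaving out suprabasal cells. Others were a stricter epithelial rule, with a 3-fold margin over the collagen genes, and no minimum of UMIs per gene. Leaving out the richest cell, neutrophil-gene cells or cells with epithelial UMIs was added after seeing the data.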

Additional observations from a re-analysis of the deposited data

Results flagged for a closer look

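The relation of Mfge8 to the non-epithelial cells turned between stages: the ratio of epithelial to other cells was 0.625 at E15.5 and 1.29 at P0. Prom1 turned as well, from 0.446 at E15.5 to 15.0 at P0. With 1 library per stage these differences were not tested.

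Among the 1826 E15.5 barcodes left out by the UMI and mitochondrial limits, which had a median of 831 UMIs, Ltf had 16 UMIs in 7 barcodes and Lcn2 had 10 UMIs in 9, against 0 and 1 UMI in the kept epithelial cells of that stage. Cd14 had 119 UMIs in 89 of these barcodes and Trf 77 in 66, against 3 and 8 in the kept epithelial cells. At least 3 UMIs of immune markers were held by 61 of the barcodes. Barcodes with immune markers held 0 of the UMIs of Ltf and of Lcn2, 39 of those of Cd14 and 16 of those of Trf. From which cells the other UMIs came was not tested. The left-out barcodes held 0 UMIs of Csn3 and of Wfdc18.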

How the results depend on the processing

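Of 59 recomputed counts of members, 54 stayed within 1.5 times the reported count. The count of members higher at E15.5 than at E13.5 went from 1 to 2 under median-ratio scaling and without suprabasal cells (Prom1 2.08 and 2.38). The count higher in Aldh1a3-high cells went from 3 to 5 when basal-gate cells were left out of the others (Csn3 2.37, Mfge8 2.59). The count higher in the E15.5 epithelium than in other cells went from 2 to 1 with a mitochondrial limit of 10% and after thinning. The counts of 10 at P0 went to 9 when Prom1 was lost: against E13.5 after thinning (1.70), against E14.5 at a mitochondrial limit of 10% (1.61) and without suprabasal cells (just under 2-fold), and against E15.5 after thinning (1.19), without suprabasal cells (1.28) and without its richest cell (1.89). At P0 the suprabasal gate took 127 of 230 cells, mostly by Ly6d, so there this setting leaves out Ly6d-expressing cells and is no removal of skin cells. Of 495 recomputed ratios of single genes, 412 stayed within their counting interval. None whose reported ratio was at least 2-fold changed direction. Median-ratio scaling moved the log2 ratios between stages by at most 0.37 (P0 to E14.5), and those between P0 epithelial and other cells by 0.32. Genes with few UMIs (Prom1, Kit, Ltf and Trf) are limited by depth and by single cells. No paired analysis was possible because each stage has 1 library and no result comes from a test.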
